A study of Mus musculus with 8 samples.

Results

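The 7 genes described here are 4 neighbours on mouse chromosome 4, Stil, Tal1, Pdzk1ip1 and Cmpk1, and 3 genes tied to Tal1. Of these 3, Lmo2 and Ldb1 encode proteins of the TAL1 complex, and Lyl1 encodes a relative of TAL1. All 7 were taken by symbol from a table of 41079 genes and were among the 20581 genes that passed the low-count filter. RNA was sequenced from the organ of Corti, the strip of hair cells and supporting cells that detects sound in the cochlea, micro-dissected from mice at postnatal day 0. The libraries fall into 4 labelled conditional Prox1 knockout, with the genotype Emx2-cre; floxed-Prox1, and 4 labelled wildtype. In the knockout design Cre is made from the Emx2 locus, so recombination is confined to cells with a history of Emx2 expression and the rest of the dissected tissue keeps an intact Prox1. The labels give no strain, sex or litter, do not say whether the wildtype animals carried Cre or a floxed allele, and do not say that libraries came from separate animals, so the spread between libraries may be technical. Tal1 and Pdzk1ip1 were picked because of their values in the comparison of knockout with wildtype, so their differences are given as a description without a test. Stil and Cmpk1 were picked for their position, and Lmo2, Lyl1 and Ldb1 for their known function.

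TAL1 (also called SCL) is a basic helix-loop-helix transcription factor needed for blood formation and for the development of blood vessels. It binds E-boxes as a dimer with an E protein, and it sits in a complex in which LMO2 and LDB1 bridge it to GATA factors. LYL1 is its closest relative. PDZK1IP1 (also called MAP17) is a small membrane protein that binds PDZ proteins, and its gene lies directly downstream of Tal1 on the same strand, in a stretch where enhancers of Tal1 are known from blood cells. STIL is a centriole duplication protein, and CMPK1 a kinase that phosphorylates pyrimidine nucleotides.

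Because Tal1 and Pdzk1ip1 stood apart together, the bases before their annotated starts are shown, the 250 bases upstream of each start in RefSeq on GRCm38.p6, which is an older build than the GRCm39 named in the submitters' processing notes. Capitals mark E-boxes (CANNTG) and the GATA core (GATAA, either strand). Tal1 has 2 annotated starts, at chr4:115056176-115056425 and chr4:115057561-115057810 for the windows before them, and Pdzk1ip1 has 1, with the window chr4:115088458-115088707, all on the plus strand.
Tal1, upstream start: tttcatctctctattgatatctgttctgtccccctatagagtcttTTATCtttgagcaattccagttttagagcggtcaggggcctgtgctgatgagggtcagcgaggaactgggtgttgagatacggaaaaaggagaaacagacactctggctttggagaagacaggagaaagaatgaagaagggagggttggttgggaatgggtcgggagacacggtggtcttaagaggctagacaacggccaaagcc
Tal1, downstream start: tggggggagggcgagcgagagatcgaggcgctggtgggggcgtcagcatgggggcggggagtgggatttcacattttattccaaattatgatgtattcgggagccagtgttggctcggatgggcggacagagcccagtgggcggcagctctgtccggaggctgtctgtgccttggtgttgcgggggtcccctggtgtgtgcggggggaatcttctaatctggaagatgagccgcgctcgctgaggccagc
Pdzk1ip1: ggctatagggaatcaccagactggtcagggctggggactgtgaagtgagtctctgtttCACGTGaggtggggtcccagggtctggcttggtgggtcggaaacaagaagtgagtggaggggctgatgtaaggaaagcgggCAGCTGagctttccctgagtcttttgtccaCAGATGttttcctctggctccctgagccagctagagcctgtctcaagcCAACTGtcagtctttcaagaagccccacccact
The window before the upstream start of Tal1 holds 1 GATA core, read as TTATC with its first base at position -205 from the start, and no E-box. The window before the downstream start holds neither. The Pdzk1ip1 window holds 4 E-boxes, CACGTG at -192, CAGCTG at -111, CAGATG at -81 and CAACTG at -33, and no GATA core. Of 32851 such windows in the table, 66.2% hold at least 1 CANNTG, 3.84% hold 4 or more, 14.4% hold CAGATG on either strand and 22.6% hold GATAA on either strand. CAGATG is also a CANNTG and is counted in both. These letters describe the windows and do not show binding.

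Library totals ran from 29908965 to 32613549 counts in the libraries labelled knockout and from 32863533 to 42318233 counts in wildtype. Prox1, the targeted homeobox gene, had 147, 137, 138 and 134 CPM (counts scaled to library size) in libraries 1 to 4 labelled knockout, against 109, 114, 106 and 115 CPM in wildtype libraries 1 to 4. Prox1 was thus higher in every library labelled knockout, which goes against the label (log2 fold change 0.33 ± 0.05 (SE), adjusted p = 0.0298 in edgeR's quasi-likelihood F-test, Benjamini-Hochberg adjusted over all tested genes). It was called in 8 of 17 alternatives, with adjusted p from 6.85e-06 to 0.478. Counts are given per gene, so the state of the floxed exons cannot be read from them, and directions below are those of the libraries as labelled. Emx2, whose locus drives Cre, had 19.7 ± 2.39 CPM in the libraries labelled knockout and 16.2 ± 1.61 CPM in wildtype (SD, n = 4 each; log2 fold change 0.28 ± 0.10 (SE), adjusted p = 0.607 in edgeR's test). Over all tested genes, 12 were called lower (0.0583%) and 7 higher (0.034%) at an adjusted p under 0.05, and the median log2 fold change was 0.00. All 8 organ of Corti markers on a list of sensory and supporting cell genes were counted, and their summed level was 942 to 1009 CPM over the libraries labelled knockout, against 945 to 1019 CPM in wildtype. The sum leans most on Jag1, at 415 ± 17.7 CPM in the libraries labelled knockout and 413 ± 31.1 CPM in wildtype (SD, n = 4 each). Without overlap of the groups, Fgf20 lay above wildtype and Fgfr3 below it. Over all tested genes 3.69% had groups that did not overlap.

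Tal1 and Pdzk1ip1 were both several-fold lower in the libraries labelled knockout. Tal1 had 2.31, 1.37, 1.20 and 0.757 CPM in libraries 1 to 4 labelled knockout, against 7.53, 7.83, 8.20 and 7.77 CPM in wildtype libraries 1 to 4. Each library labelled knockout lay below each wildtype library. The means were 1.41 ± 0.653 CPM in the libraries labelled knockout and 7.83 ± 0.277 CPM in wildtype (SD, n = 4 each), so the level in the libraries labelled knockout was 17.97% of that in wildtype, a log2 fold change of -2.48 ± 0.24 (SE). Pdzk1ip1 had 0.475, 0.773, 0.538 and 0.851 CPM in libraries 1 to 4 labelled knockout, against 6.0, 4.44, 5.33 and 4.57 CPM in wildtype libraries 1 to 4. Its groups did not overlap either. The means were 0.659 ± 0.181 CPM in the libraries labelled knockout and 5.09 ± 0.724 CPM in wildtype (SD, n = 4 each), which left 13.0% of the wildtype level, a log2 fold change of -2.94 ± 0.21 (SE). These values chose the 2 genes: among all tested genes Pdzk1ip1 had the lowest log2 fold change and Tal1 ranked 4 from the lowest, in a set of 10 genes (0.0486%) at -2 or below, while 759 genes (3.69%) had groups that did not overlap. In the authors' deposited results for the same comparison the log2 fold changes were -2.49 for Tal1 and -2.95 for Pdzk1ip1, and they ranked 3 and 1 by p. That comparison chose the 2 genes, so these values are not independent evidence.

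**Figure D1:**
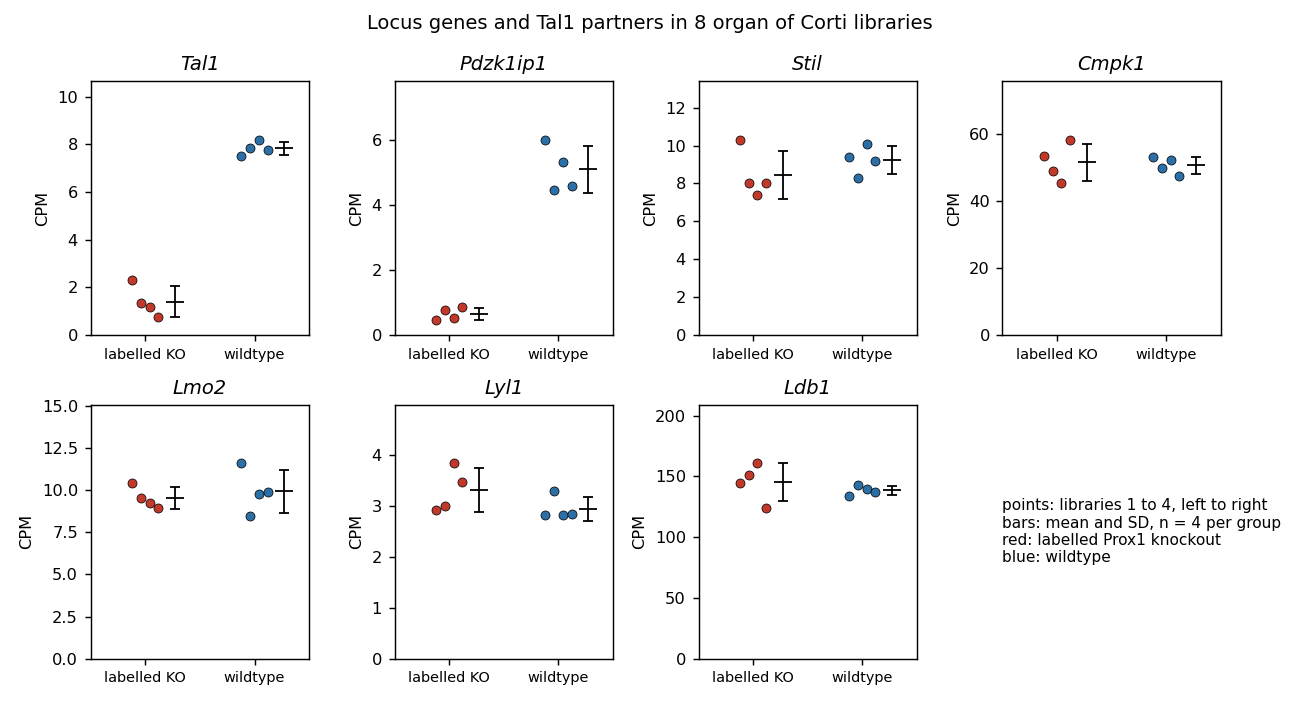
CPM of the 7 genes in each of the 8 libraries (y axis, from 0), labelled knockout in red and wildtype in blue, with the mean and SD of 4 libraries beside the points. Tal1 lies at 0.757 to 2.31 CPM over the libraries labelled knockout, against 7.53 to 8.20 CPM in wildtype, Pdzk1ip1 at 0.475 to 0.851 CPM over the libraries labelled knockout, against 4.44 to 6.0 CPM in wildtype, and the groups of the other 5 genes overlap.

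Both genes kept some reads in every library labelled knockout. Tal1 had 68, 46, 40 and 24 raw counts in libraries 1 to 4 labelled knockout, against 291, 340, 280 and 260 in wildtype libraries 1 to 4. The exact 95% Poisson intervals of the extreme libraries labelled knockout, 52.8 to 86.2 for library 1 and 15.4 to 35.7 for library 4, did not overlap, although these intervals cover counting error only. The coefficient of variation of Tal1 was 46.4% among the libraries labelled knockout and 3.54% among wildtype libraries. The Poisson interval of wildtype library 4 alone was 229 to 294 around its 260 counts. The wildtype value thus lies within counting error and may understate the spread. Pdzk1ip1 had 14, 26, 18 and 27 raw counts in libraries 1 to 4 labelled knockout, against 232, 193, 182 and 153 in wildtype libraries 1 to 4. Its lowest and highest counts among the libraries labelled knockout had overlapping intervals, 7.65 to 23.5 for library 1 and 17.8 to 39.3 for library 4. The 2 genes were ordered differently among these libraries: library 1 was highest for Tal1 and lowest for Pdzk1ip1, and library 4 was lowest for Tal1 and highest for Pdzk1ip1. The number of Tal1 counts per Pdzk1ip1 count was therefore 4.86, 1.77, 2.22 and 0.889 in libraries 1 to 4 labelled knockout, against 1.25, 1.76, 1.54 and 1.70 in wildtype libraries 1 to 4. The wildtype range lay inside the range of the libraries labelled knockout. Without library 1 labelled knockout the log2 fold change of Tal1 was -2.81, and without library 4 it was -2.28.

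Stil and Cmpk1, the neighbours on the other side of Tal1, were not called. Stil had 10.3, 8.03, 7.42 and 8.04 CPM in libraries 1 to 4 labelled knockout, against 9.39, 8.26, 10.1 and 9.17 CPM in wildtype libraries 1 to 4. Library 1 labelled knockout was the highest of all 8 and the other libraries labelled knockout lay below the lowest wildtype library, so the groups overlapped (log2 fold change -0.13 ± 0.12 (SE), adjusted p = 0.757 in edgeR's test). Cmpk1 had 53.6, 49.1, 45.5 and 58.4 CPM in libraries 1 to 4 labelled knockout, against 53.3, 49.9, 52.4 and 47.6 CPM in wildtype libraries 1 to 4. Its groups overlapped (0.02 ± 0.08, adjusted p = 0.940 in edgeR's test), and its sign turned without library 4 labelled knockout or without wildtype library 4, at -0.041 and -0.0063. No annotated gene overlaps any of these 4 genes in GENCODE M21.

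The tested genes beyond the stretch gave no call either. Of the 10 nearest, 5 on each side, 0 were called in edgeR's test, 0 had an unadjusted p under 0.05 and 0 were called in any alternative, DESeq2 and limma included. This compares with 0.0923% of all tested genes called in either direction. Of the 10, 4 had a log2 fold change below 0 and 6 above, and their values ran from -0.18 to 0.24. On the Cmpk1 side these were Foxd2os (-0.18 ± 0.20), the forkhead factor gene Foxd2 (-0.01 ± 0.17), Gm33655 (0.02 ± 0.17), Gm33710 (0.22 ± 0.14) and the Wnt-inhibiting metalloprotease gene Trabd2b (-0.13 ± 0.07). On the Pdzk1ip1 side they were the cytochrome P450 gene Cyp4x1 (0.22 ± 0.33), Efcab14 (-0.07 ± 0.05), Tex38 (0.24 ± 0.22), the gene of the mitochondrial ATP synthase assembly factor Atpaf1 (0.12 ± 0.08) and Mob3c (0.02 ± 0.11; all SE). The signs of Gm33710, Gm33655, Foxd2, Cyp4x1 and Mob3c turned in at least 1 alternative fit. Cyp4x1, next to Pdzk1ip1, had 1.48 ± 0.511 CPM in the libraries labelled knockout and 1.25 ± 0.541 CPM in wildtype (SD, n = 4 each). Gm33786, annotated between Tal1 and Pdzk1ip1, had 2 to 7 counts per library labelled knockout and 1 to 10 per wildtype library and was not tested. The low counts were thus measured at Tal1 and Pdzk1ip1, and the nearest tested genes on either side of them were not called.

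**Figure D2:**
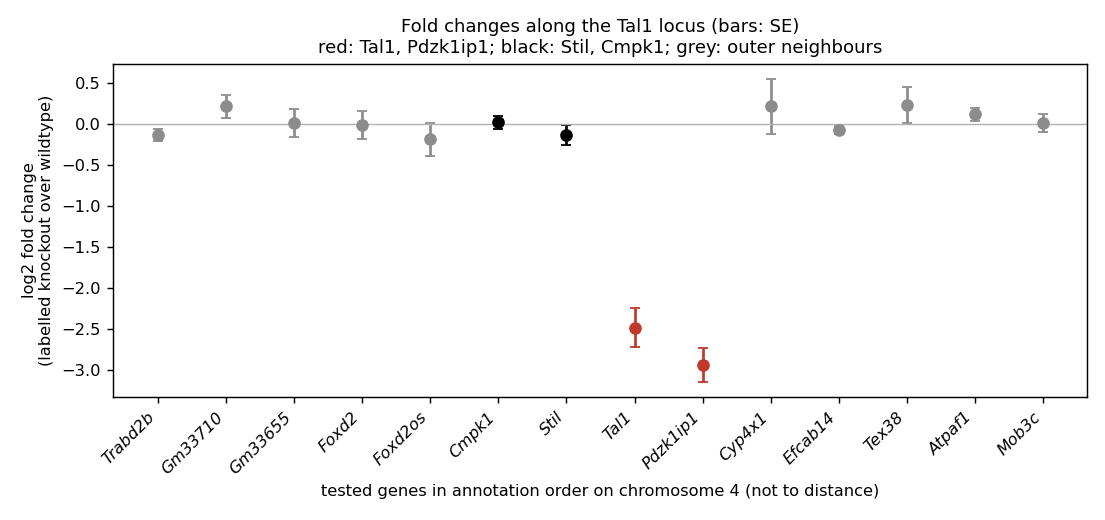
Log2 fold change of labelled knockout over wildtype (y axis, bars are SE) for the 14 tested genes around Tal1, in their order on chromosome 4 and not to distance. Tal1 at -2.48 and Pdzk1ip1 at -2.94 lie far below the 12 others, which run from -0.18 to 0.24.

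None of Lmo2, Lyl1 and Ldb1 was called. Lmo2, the LIM-only bridge of the complex, had 10.4, 9.51, 9.24 and 8.95 CPM in libraries 1 to 4 labelled knockout, against 11.6, 8.45, 9.78 and 9.89 CPM in wildtype libraries 1 to 4. All values of the libraries labelled knockout lay within the wildtype range. Lyl1, the relative of Tal1, had 2.92, 3.00, 3.83 and 3.47 CPM in libraries 1 to 4 labelled knockout, against 2.82, 3.29, 2.81 and 2.84 CPM in wildtype libraries 1 to 4. Libraries 3 and 4 labelled knockout were the highest of the 8, and the groups overlapped through wildtype library 2. Ldb1, which holds LIM-only proteins and is expressed in most tissues, had 145, 152, 161 and 124 CPM in libraries 1 to 4 labelled knockout, against 134, 143, 140 and 137 CPM in wildtype libraries 1 to 4. Library 4 labelled knockout was the lowest of all 8 and the other libraries labelled knockout the highest. In edgeR's test the log2 fold changes were -0.06 ± 0.11 for Lmo2, 0.17 ± 0.15 for Lyl1 and 0.07 ± 0.07 for Ldb1 (SE), with adjusted p = 0.889, 0.742 and 0.776. None of the 5 genes not chosen on this comparison was called in any of the 17 alternative fits, with adjusted p of at least 0.29. A p that misses the threshold does not show equal levels. The 95% intervals of the log2 fold change ran from -0.30 to 0.18 for Lmo2, from -0.15 to 0.48 for Lyl1 and from -0.09 to 0.22 for Ldb1, and for the neighbours from -0.39 to 0.13 for Stil and from -0.14 to 0.19 for Cmpk1. Exons of Lyl1 share 4 bases with Nfix, an abundant gene on the opposite strand, in GENCODE M21. Whether counting used strand is not given in the sources used here, so reads in that overlap could not be assigned with certainty.

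On the scale of CPM per kilobase of exon, which allows genes to be compared with one another, the levels in the libraries labelled knockout ran in the order Ldb1 (33.7), Cmpk1 (16.3), Lmo2 (5.03), Lyl1 (1.84), Stil (1.60), Pdzk1ip1 (0.581) and Tal1 (0.328). In wildtype the order was Ldb1 (32.1), Cmpk1 (16.0), Lmo2 (5.24), Pdzk1ip1 (4.48), Tal1 (1.83), Stil (1.75) and Lyl1 (1.63). Tal1, which in wildtype lay among Stil and Lyl1, had the lowest mean level of the 7 in the libraries labelled knockout. Library ranges overlapped between Lyl1 and Stil and between Pdzk1ip1 and Tal1 in the libraries labelled knockout. In wildtype they overlapped between Lmo2 and Pdzk1ip1 and among Tal1, Stil and Lyl1. Within each wildtype library Lmo2 still lay above Pdzk1ip1, at 6.12, 4.46, 5.16 and 5.22 against 5.29, 3.92, 4.70 and 4.03 in libraries 1 to 4. The order of the other overlapping genes changed between libraries. These orders were not tested.

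The rest of the TAL1 machinery was described from 8 lists of GATA factors, E proteins, Id proteins, Tal1 relatives, LIM-only, LDB and SSBP genes, cofactors, blood factors and red cell targets. Of 48 genes 43 were tested, 0 were called in edgeR's test, and 2 (4.65%) had an unadjusted p under 0.05, against 0.0923% called and 7.55% under 0.05 over all tested genes. Of the 43, 13 had a log2 fold change above 0 and 30 below, against 10291 above and 10290 below over all tested genes. The median of the 43 was -0.02. DESeq2 called 1 of them, Kit, in a fit that called 35 genes higher and 48 lower over all tested genes. Among the GATA factors, Gata3, which is needed for inner ear development, had 297 ± 10.4 CPM in the libraries labelled knockout and 286 ± 12.1 CPM in wildtype. Gata2, a partner of TAL1 in blood stem cells, ran from 108 to 130 CPM over the libraries labelled knockout, against 112 to 127 CPM in wildtype. Gata6 had the lowest p of these factors (log2 fold change -0.27 ± 0.18 (SE)). Gata1, the partner of TAL1 in red cells, had 0.171 ± 0.209 CPM in the libraries labelled knockout and 0.0514 ± 0.0457 CPM in wildtype (SD, n = 4 each) and was not tested, and Gata5 had no counts in any library.

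The dimer partners of TAL1 and their inhibitors were abundant and overlapped between groups. The E protein gene Tcf3 had 194 ± 4.68 CPM in the libraries labelled knockout and 198 ± 6.91 CPM in wildtype (SD, n = 4 each). Tcf4 had 242 ± 8.72 CPM in the libraries labelled knockout and 236 ± 8.46 CPM in wildtype. For Tcf12 the libraries labelled knockout averaged 231 ± 1.96 CPM and wildtype 235 ± 14.0 CPM. Of these 3 genes Tcf4 had the lowest p (log2 fold change 0.04 ± 0.05). Among the 4 Id genes, whose proteins block E proteins, values ran from -0.06 to 0.12, the highest being Id2 at 0.12 ± 0.08. Among the relatives of Tal1, the neuronal factor gene Nhlh1 had -0.15 ± 0.14, and Tal2, with 0.169 ± 0.121 CPM in the libraries labelled knockout and 0.304 ± 0.160 CPM in wildtype, was not tested. In the LIM-only, LDB and SSBP list 0 of 8 were called, with values from -0.05 to 0.20. The highest, Ssbp1 at 0.20 ± 0.09, encodes a mitochondrial DNA-binding protein and not a partner of LDB1. Of the 9 cofactor genes 0 were called and all lay below 0, between -0.16 and -0.01. Cbfa2t3, the gene of the corepressor ETO2, was lowest at -0.16 ± 0.08. Sin3a, the middle gene, had -0.02 ± 0.05, so the shared sign rests largely on values within their SE. Of 6 tested blood factor genes 0 were called, and Erg, an ETS factor of blood and endothelium, had -0.17 ± 0.09 (all SE).

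**Figure D3:**
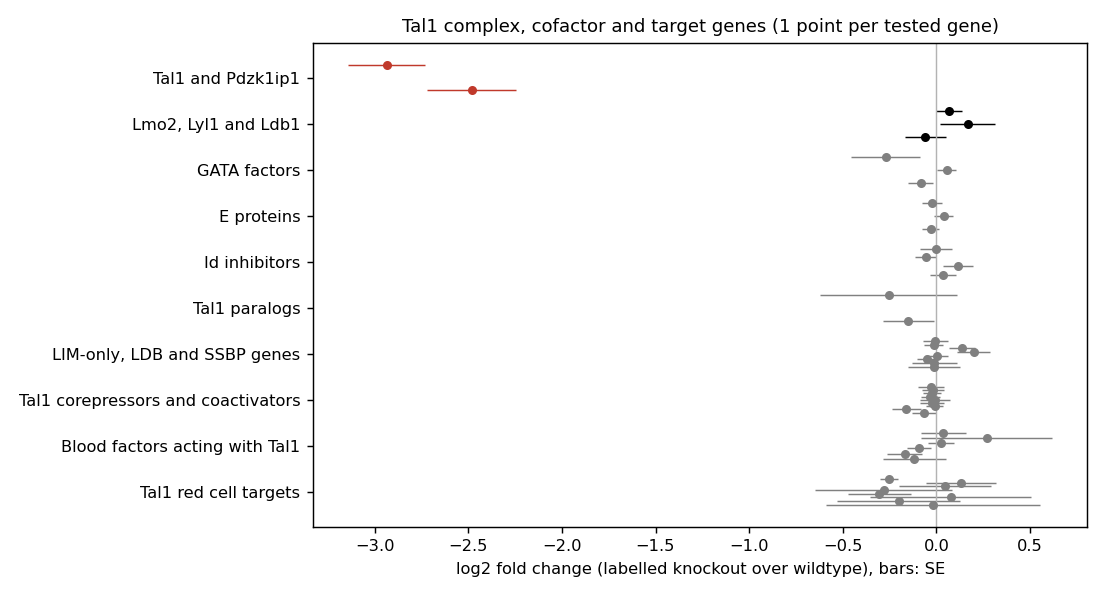
Log2 fold change of labelled knockout over wildtype (x axis, bars are SE) for each tested gene of the TAL1 machinery, by list. Tal1 and Pdzk1ip1 lie at -2.48 and -2.94, Lmo2, Lyl1 and Ldb1 between -0.06 and 0.17, and the genes of the 8 lists between -0.30 and 0.27.

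Known red cell targets of TAL1 did not show a call. Of 8 such genes 0 were called, with values from -0.30 to 0.13. Kit, the receptor gene of blood progenitors and melanocytes, had the lowest p (51.6 ± 1.35 CPM in the libraries labelled knockout and 61.4 ± 1.22 CPM in wildtype, log2 fold change -0.25 ± 0.05, adjusted p = 0.125 in edgeR's test). Its groups did not overlap. DESeq2 called it (adjusted p = 0.00289), 1 call in 17 alternatives, over which the adjusted p ran up to 1.0.

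In such bulk samples fewer cells of a type and less RNA per cell cannot be told apart, so markers of the cells that normally carry Tal1 are given beside it. The 15 blood endothelium markers were all counted, and their summed level was 462 to 475 CPM over the libraries labelled knockout, against 453 to 529 CPM in wildtype, with overlapping groups (exact permutation p = 0.286, two-sided, n = 4 each, Benjamini-Hochberg adjusted p over 7 lists = 0.433). Of the 15 genes 0 were called, 13 lay below 0 and 2 above, and the median was -0.15. In edgeR's test 5 of the 15 had an unadjusted p under 0.05, against 7.55% of all tested genes. These were Flt1, Tek, Cdh5 and Kdr below 0 and Emcn above. Flt1, a VEGF receptor gene whose groups did not overlap, had the lowest p (-0.20 ± 0.07), the vascular cadherin gene Cdh5 had -0.23 ± 0.10 and Emcn 0.20 ± 0.09 (SE). Emcn was the most abundant of the 15, at 121 ± 16.4 CPM in the libraries labelled knockout and 106 ± 8.06 CPM in wildtype (SD, n = 4 each). The sum thus leans most on a gene whose direction was against that of most of the list. The Tal1 values are also given on the scale of these markers, as a description: the summed markers differed by -0.08 on the log2 scale, so the ratio follows from the low Tal1 counts that chose the gene. Per 1000 CPM of endothelial markers there were 4.87, 2.95, 2.59 and 1.59 CPM of Tal1 in libraries 1 to 4 labelled knockout, against 14.2, 16.4, 15.7 and 17.1 in wildtype libraries 1 to 4. On the same scale Lmo2 ran from 18.8 to 22.0 in the libraries labelled knockout and from 17.7 to 21.9 in wildtype, and Lyl1 from 6.16 to 8.29 in the libraries labelled knockout and from 5.32 to 6.91 in wildtype. Lmo2 and Lyl1 are also known from endothelium, and their groups overlapped on this scale.

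**Figure D4:**
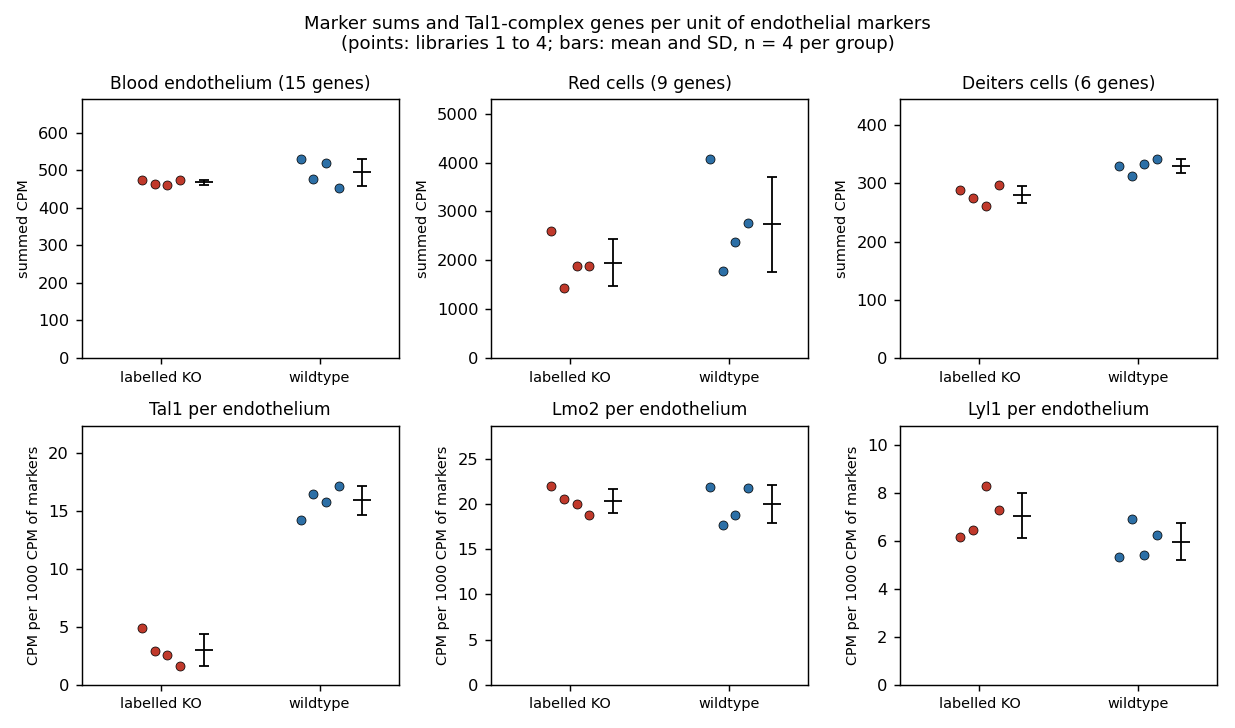
Upper row, summed CPM of marker lists of blood endothelium, red cells and Deiters cells in each library (y axis, from 0). Lower row, CPM of Tal1, Lmo2 and Lyl1 per 1000 CPM of endothelial markers, with labelled knockout in red, wildtype in blue, and mean and SD of 4 libraries. Tal1 per endothelial marker is 1.59 to 4.87 in the libraries labelled knockout and 14.2 to 17.1 in wildtype, while Lmo2 and Lyl1 overlap.

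Blood cell markers varied more than endothelial ones. The 9 red cell markers summed to 1429 to 2594 CPM over the libraries labelled knockout, against 1778 to 4070 CPM in wildtype, with overlapping groups (exact permutation p = 0.200, two-sided, n = 4 each). None of the 8 tested was called, the median log2 fold change was -0.36, and the haemoglobin gene Hba-a2 had the lowest p (-0.54 ± 0.21 (SE)). Wildtype library 1 held the most haemoglobin and the lowest Tal1 level of the wildtype libraries, and removal of haemoglobin, mitochondrial and ribosomal RNA genes before scaling left Tal1 at -2.49. The 6 megakaryocyte and platelet markers summed to 11.1 to 12.5 CPM over the libraries labelled knockout, against 9.87 to 12.5 CPM in wildtype, and of 4 tested genes 2 lay above 0 and 2 below, with a median of 0.04 and Pf4 at 0.23 ± 0.19. The 5 mast cell markers summed to 3.23 to 4.16 CPM over the libraries labelled knockout, against 2.97 to 5.02 CPM in wildtype, and of 3 tested genes 1 lay above 0 and 2 below, with a median of -0.17 and Cma1 at -0.30 ± 0.23. The 6 macrophage markers summed to 40.0 to 43.2 CPM over the libraries labelled knockout, against 39.5 to 52.5 CPM in wildtype, and 4 of the 6 genes lay below 0 and 2 above, with a median of -0.12. Aif1, the gene with the lowest p of this list, lay above 0 at 0.69 ± 0.36, against the direction of most of the list. Library 1, the highest of the libraries labelled knockout for Tal1, was also the highest of them in red cell markers, at 2594 CPM. It was also the highest in Gata1, at 14 raw counts against 0 to 4 in the other 3. Over libraries 2 to 4 labelled knockout the orders were opposite. Red cell markers rose from 1429 to 1881 and 1886 CPM, while Tal1 fell from 1.37 to 1.20 and 0.757 CPM. The part of these cells in the spread of Tal1 was not tested. No gene of these lists was called, the groups overlapped in each sum, and the exact permutation p of these 3 sums was 0.371, 0.543 and 0.286 (two-sided, n = 4 each). No marker of these 4 lists was at 0 in all libraries.

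PROX1 is known from Deiters cells, the supporting cells under outer hair cells, so genes of these cells are given beside the members. The 6 markers summed to 289, 276, 262 and 297 CPM in libraries 1 to 4 labelled knockout, against 330, 313, 334 and 342 CPM in wildtype libraries 1 to 4. The groups did not overlap (exact permutation p = 0.0286, two-sided, n = 4 each, the smallest this design allows, and 0.200 after Benjamini-Hochberg adjustment over 7 lists). Of the 6 genes 0 were called, all lay below 0, and the median was -0.24. The protease gene Prss23 had the lowest p (89.9 ± 9.97 CPM in the libraries labelled knockout and 118 ± 6.91 CPM in wildtype, -0.39 ± 0.07 (SE), adjusted p = 0.136 in edgeR's test, and 0.00265 to 0.820 over 17 alternatives). It was called in 3 of these, without the low-count filter, with DESeq2 and without library 4 labelled knockout. This list was written with earlier results of these libraries known and holds genes already seen to be low, so it is not independent evidence of a direction. The summed level of these markers in the libraries labelled knockout differed from wildtype by -0.23 on the log2 scale, against -2.94 for Pdzk1ip1, and their part in the Pdzk1ip1 result was not tested.

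Genes that work with the other members were not called. Of 5 tested genes for PDZ partners of PDZK1IP1 and transporters linked to it, 0 were called, with values from -0.31 to 0.10. The PDZ protein gene Pdzk1, for which Pdzk1ip1 is named, had 0.302 ± 0.0825 CPM in the libraries labelled knockout and 0.345 ± 0.0737 CPM in wildtype (SD, n = 4 each), while Nherf1, a PDZ protein gene of microvilli, had 123 ± 8.33 CPM in the libraries labelled knockout and 132 ± 12.5 CPM in wildtype (log2 fold change -0.10 ± 0.07 (SE)). Of the 7 centriole partner genes of Stil 0 were called and values ran from -0.20 to 0.15, with Plk4, the kinase that starts centriole duplication, at -0.20 ± 0.09. Of 8 nucleotide kinase genes related to Cmpk1 0 were called and all lay below 0, between -0.20 and -0.05. Dtymk, which phosphorylates thymidylate, had -0.12 ± 0.06. Over all 18 lists 108 genes were tested and 0 were called in edgeR's test, against 0.0923% of all tested genes. Of the 108, 14 (13.0%) had an unadjusted p under 0.05, against 7.55% of all tested genes. DESeq2, which called 35 genes higher and 48 lower over all tested genes, called 3 of the 108 (Kit, Prss23 and Fgf20). Of the 14, 5 are on the blood endothelium list, 3 on the red cell marker list and 3 on the Deiters cell list. The lists were chosen with earlier results known, and the Deiters cell list holds genes already seen to be low. The larger share in the lists is therefore not independent evidence. Fgf20, an organ of Corti growth factor gene, had 0.87 ± 0.17 (adjusted p = 0.172 in edgeR's test).

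The genes most like Tal1 across the 8 libraries were sought by the root mean square difference of centred log2 CPM over 17204 genes whose log2 CPM averaged 0 or more. In order these were Gm45645 (0.52), Marchf4 (0.64), Pdzk1ip1 (0.65), the nuclear receptor gene Nr4a3 (0.69) and the melanocortin receptor gene Mc5r (0.76). The 4 most like Pdzk1ip1 were Tal1 (0.65), Nr4a3 (0.68), Marchf4 (0.71) and Gm45645 (0.78). This measure runs over both groups, so it is set largely by the same gap between labelled knockout and wildtype that chose Tal1 and Pdzk1ip1, and their closeness restates that choice. Within the libraries labelled knockout the extremes of the 2 genes lay in opposite libraries, as given above. In each of these genes the libraries labelled knockout lay below the wildtype libraries. Gm45645 had 2.26 ± 1.09 CPM in the libraries labelled knockout and 10.7 ± 2.2 CPM in wildtype, and Nr4a3 had 2.43 ± 0.374 CPM in the libraries labelled knockout and 7.62 ± 0.691 CPM in wildtype (SD, n = 4 each). Stil, Lmo2, Ldb1, Cmpk1 and Lyl1 stood at places 638, 3479, 10510, 10712 and 14495 from Tal1.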

How the data were processed

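Per the labels' protocols, the 8 libraries were prepared with NEBNext Ultra II from total RNA after rRNA removal. HISAT2 2.2.1, cutadapt 4.3, FastQC 0.12.1, featureCounts, DESeq2 and the build GRCm39 are named in the submitters' processing notes. The annotation, strand setting and handling of multi-mapped reads are not given in these sources. For each library the authors deposited a column of raw gene counts. The authors also deposited signal columns made by averaging counts, the mean of the raw counts of each group and DESeq2's base mean of counts divided by size factors, per the file headers; these were not tested. The authors also deposited log2 fold changes, a Wald score and p-values from DESeq2, per the file headers; their direction is not stated and matches knockout over wildtype as labelled.

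Columns were assigned by library name. Counts were filtered with filterByExpr (minimum count 10), scaled by TMM, and tested with edgeR 4.0.16 in R 4.3.3 (quasi-likelihood, genotype as single factor, Benjamini-Hochberg adjustment over 20581 genes, threshold 0.05). SEs of log2 fold changes are approximate: each is the size of the log2 fold change divided by the square root of its F statistic. The 95% intervals use these SEs with a t distribution. No count was found for 8065 genes. CPM values use the TMM factors. The kept genes hold 99.90 to 99.93% of each library's counts. Marker sums were compared by two-sided exact permutation tests over 70 assignments. Lengths are GENCODE M21 exon unions. Neighbours follow RefSeq order on GRCm38.p6, and promoter windows matched 6 of the 7 genes.

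Members, lists, tests and alternatives were chosen with earlier results of these data known. Named are the members, Prox1, Emx2, the 10 nearest tested neighbours, the gene with the lowest p per list and the 5 genes most like Tal1 and Pdzk1ip1, of which 1 is not reported here; other list genes were named after their values were seen. Alternatives were RLE and upper quartile scaling, no filter, a filter of 50 counts in 4 libraries, DESeq2 1.42.0, limma-voom (limma 3.58.1), the replicate number as a block, each library left out, 73 genes of mitochondria, haemoglobin and rRNA removed, and wildtype libraries 1 and 3 left out. The fits were tested on simulated data. No pair of libraries of the same group agreed within sampling noise (lowest chi-square per degree of freedom 10.7). Pairs across the groups were not compared.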

Additional observations from a re-analysis of the deposited data

Results flagged for a closer look

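In 110 groups of 4 libraries checked, 3 had a library far from the others, and chance flags about 1 in 20 groups. Lyl1 had 3.29 CPM in wildtype library 2, while wildtype libraries 1, 3 and 4 ran from 2.81 to 2.84 CPM. Gm33710, a neighbour on the Cmpk1 side, had 28.1 CPM in library 4 labelled knockout, against 34.3 to 35.1 CPM in the other libraries labelled knockout. The organ of Corti markers summed to 945 CPM in wildtype library 1, while wildtype libraries 2 to 4 ran from 1007 to 1019 CPM.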

How the results depend on the processing

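Tal1 ran from -2.81 to -2.28 and Pdzk1ip1 from -3.08 to -2.76 on the log2 scale over 17 alternatives. The number of genes called higher was 12 without the low-count filter, 35 with DESeq2, 3 with the replicate block, 2 without wildtype libraries 1 and 3, and 2 to 7 with 1 library left out. The number called lower was 24, 48, 12, 7 and 8 to 20 in the same order of settings, with 20 reached without library 4 labelled knockout. List genes called lower were 1 without the filter, 2 with DESeq2 and 0 to 1 with 1 library left out, and 1 was called higher with DESeq2. The replicate block gave Tal1 -2.54 and Pdzk1ip1 -2.93. Equal replicate numbers share no stated origin, and the deviations of equally numbered libraries correlated at 0.10, 0.20, -0.26 and -0.13 across genes. Signs turned for Cmpk1 and Lmo2 with 1 library left out (-0.041 to 0.078 and -0.13 to 0.024), and without wildtype libraries 1 and 3 for Lmo2 (0.057), Gm33710 (-0.0085), Gm33655 (-0.081), Foxd2 (0.080), Cyp4x1 (-0.11) and Mob3c (-0.076). Foxd2 was 0.0071 with upper quartile scaling, 0.0051 with the filter of 50 counts and 0.0057 with the replicate block. With 1 library left out Gm33655 ran from -0.088 to 0.095, Foxd2 from -0.12 to 0.047, Cyp4x1 from -0.0097 to 0.51 and Mob3c from -0.059 to 0.10. Prox1 lost its call with the replicate block (adjusted p = 0.159 in edgeR's test). The cause of these changes was not tested. Depth limits the values of Pdzk1ip1 and Tal1 in the libraries labelled knockout, which rest on 14 to 27 and 24 to 68 counts per library.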
